A study of Mus musculus with 5 samples.

Results

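Regions of the mouse genome that carried a listed peak of ubiquitinated histone H2A (H2AK119Ub) in both fusion oncogene libraries, PML-RARa and MLL-AF9, and none in the non-transduced (NT) library are described here. Peaks of the 4 deposited lists were merged where they overlapped or touched, which gave 2575 regions, and 267 of them met this rule (10.4% of all merged regions). Of the 267 regions, 72 also held a peak of the HOXA9 library and 195 did not. The regions were chosen by the presence of a listed peak in PML-RARa and MLL-AF9 and its absence in NT, so their number is a description and not a finding.

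The cells were lineage-negative haematopoietic progenitors isolated from the bone marrow of C57BL/6 mice, cultured in liquid medium, and either left without transduction or transduced with HOXA9, PML-RARa or MLL-AF9. All libraries shared the genotype R26CreERT2;Ring1a-/-;Ring1bf/f;Cdkn2a-/-, so the controls also lacked Ring1a and Cdkn2a and carried a conditional Ring1b allele with an inducible Cre expressed from the Rosa26 locus. Whether the Cre had been induced, the age of the mice and the number of animals pooled are not stated in the labels. Chromatin was fixed with 1% formaldehyde and precipitated with an antibody to H2AK119Ub. Each group had 1 library, no group transduced without an oncogene was described, and the input was not analysed here. Every difference below is therefore between single libraries and was not tested between conditions, and effects of an oncogene cannot be told apart from those of transduction or of the library. Peak lists hold no expression values, so the identity of the cells could not be checked against marker genes.

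H2AK119Ub is a product of Polycomb repressive complex 1 (PRC1), in which RING1A or RING1B is the ubiquitin ligase, and it typically forms broad domains over silenced developmental genes. PML-RARa is the fusion of a nuclear body protein with the retinoic acid receptor alpha that characterises acute promyelocytic leukaemia. MLL-AF9 joins the amino-terminal part of a histone methyltransferase of the trithorax family to a protein of the transcription elongation machinery, and HOXA9 is a homeobox transcription factor that is itself a well-known downstream gene of MLL fusions. Cdkn2a encodes inhibitors of the cell cycle that Polycomb complexes repress in stem cells. An annotation of the mm9 assembly, to which the peaks belong, was not used here, so regions are given by mm9 position and no gene is assigned to them.

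The 267 regions spanned 5.87 Mb. Their median merged length was 17.1 kb, against 11.4 kb for regions of each fusion library alone. It was 29.5 kb for the 589 regions of both fusions that had an NT peak too. Merged length spans the peaks of every list in a region, so the merging itself pushes regions of more lists to greater length. Median PML-RARa cover was 15.5 kb here, 11.4 kb in regions of PML-RARa alone and 22.2 kb in the 589 regions. Median MLL-AF9 cover was 12.2 kb here, 11.4 kb in regions of MLL-AF9 alone and 19.0 kb in the 589 regions. The 267 merged regions ran from 1.89 to 86.6 kb (quartiles 12.0 and 27.6 kb). PML-RARa peaks covered 5.15 Mb of them, MLL-AF9 peaks 4.30 Mb and HOXA9 peaks 1.42 Mb, and 3.73 Mb lay in peaks of both fusion libraries. They held 273 of the 1772 PML-RARa peaks (15.4%) and 273 of the 1408 MLL-AF9 peaks (19.4%), and 73 of the 620 HOXA9 peaks (11.8%). The NT list had 1332 peaks, none of them here by the rule. The number of regions depended on the lists: it was 160 with the upper 50% of every list by score, 117 with the best 620 peaks of each and 79 with the upper 50% of the fusion lists alone. The depth of the libraries is unknown, since no read counts come with the lists.

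In 258 of the 267 regions there was exactly 1 peak of each fusion library, and in 266 the PML-RARa and MLL-AF9 peaks overlapped each other directly. Without a HOXA9 peak to join them, direct contact of the fusion peaks is fixed by the merging, so for the 195 regions without HOXA9 this count is no finding. In the same 266 regions at least 50% of the shorter peak lay within the longer. In 167 (62.5%, 95% interval 56.4 to 68.4) the shorter peak lay wholly inside, against 58.1% (interval 54.0 to 62.1) of the 589 both-fusion regions with an NT peak. Shares of regions are given with exact Clopper-Pearson intervals, which treat regions as independent and cover counting error only. The exception among the 267 regions was at chr10:42325593-42359977. Its PML-RARa cover of 18.6 kb and MLL-AF9 cover of 12.4 kb shared no base and were joined through HOXA9 cover of 29.6 kb.

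Of the 258 regions with 1 peak of each fusion library, 52 (20.2%, interval 15.4 to 25.6) had both ends of the pair within 1000 bp of each other. A further 123 had 1 end within that distance, and 83 had neither. The corresponding share with both ends close was 12.4% (interval 9.65 to 15.5) among 518 such regions that also had an NT peak. The difference between these shares compares regions within the same pair of libraries and was not tested. Regions with an NT peak were also longer (median 29.5 kb against 17.1 kb), and the limit of 1000 bp was not scaled to length.

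MLL-AF9 peaks were usually the shorter of the pair. The median covered length was 15.5 kb for PML-RARa (95% interval of the median 13.8 to 16.7, from binomial order statistics) and 12.2 kb for MLL-AF9 (interval 10.9 to 13.1). MLL-AF9 covered less in 182 of 267 regions (68.2%, interval 62.2 to 73.7), and the covers lay within 1.5 times of each other in 169 (63.3%). These shares were 64.0% and 63.3% in the 589 regions of both fusions that had an NT peak. The median ratio of MLL-AF9 to PML-RARa cover in the 267 regions was 0.885 (interval 0.823 to 0.920). The ratio was 0.894 (interval 0.866 to 0.925) in the 589 regions that also had an NT peak, so the shorter MLL-AF9 cover was not particular to the regions absent from the NT list. Across the 267 regions the covers of the fusion libraries had a Spearman rho of 0.67, and their best scores 0.22. The points share the merging that defined the regions, and the coefficients carry no test.

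**Figure D1:**
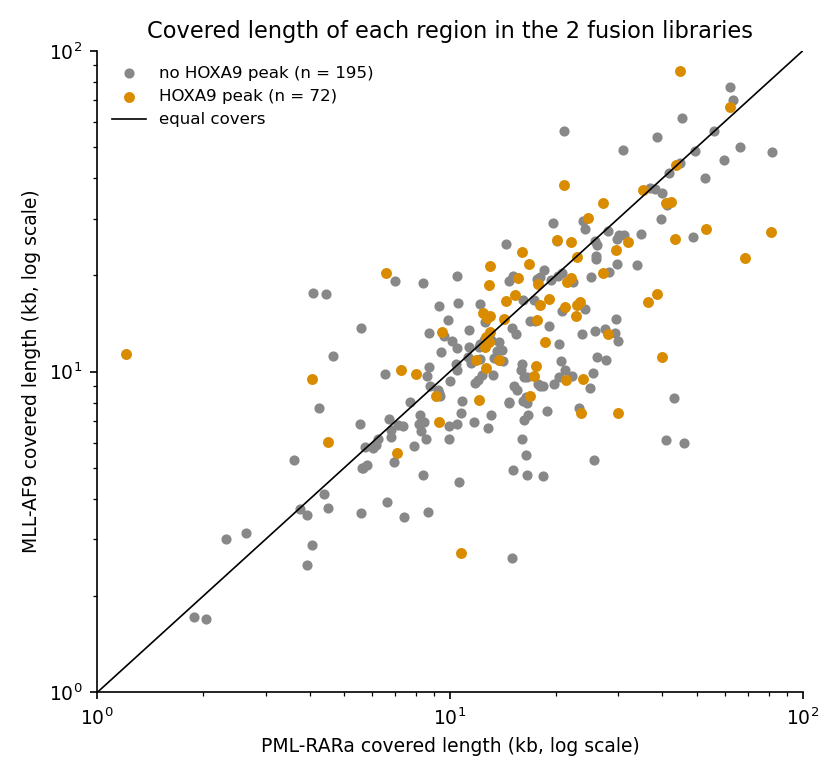
Covered length in kb of each of the 267 regions in the PML-RARa library (horizontal, log scale) and the MLL-AF9 library (vertical, log scale), 1 point a region, with the line of equal covers; orange points are the 72 regions with a HOXA9 peak and grey points the 195 without. More points lie below the line (182 of 267) than above it, and orange points are found over most of the range of lengths.

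A small number of regions departed far from equal covers. The narrowest MLL-AF9 cover relative to PML-RARa was at chr11:54014407-54060427, with 46.0 kb for PML-RARa (score 1545) and 6.00 kb for MLL-AF9 (score 774). At chr9:44505123-44546178 the covers were 41.1 kb for PML-RARa and 6.13 kb for MLL-AF9. At chr7:105920404-105963470 they were 43.1 kb for PML-RARa and 8.29 kb for MLL-AF9. These 3 regions had no HOXA9 peak. Among regions with one, the lowest ratio was at chr4:147526386-147556228, where PML-RARa covered 29.8 kb, MLL-AF9 7.43 kb and HOXA9 7.42 kb, with the lowest PML-RARa score listed (700). In all, 43 regions (16.1%) had an MLL-AF9 cover below 0.5 times that of PML-RARa, and 10 (3.75%) had one above 2 times. Among the 589 regions of both fusions with an NT peak these shares were 12.7% and 4.41%.

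The opposite pattern was most pronounced at chr2:5627416-5639714, where a PML-RARa cover of 1.21 kb lay within an MLL-AF9 cover of 11.4 kb, and the HOXA9 cover was 10.4 kb. At chr4:148924008-148964929, PML-RARa covered 6.6 kb, MLL-AF9 20.3 kb and HOXA9 40.5 kb. At chr6:120607590-120625218, without a HOXA9 peak, PML-RARa covered 4.08 kb and MLL-AF9 17.6 kb. At chr4:21601295-21618778, also without one, they were 4.46 kb for PML-RARa and 17.5 kb for MLL-AF9. In the first and second of these regions the HOXA9 cover was closer in length to that of MLL-AF9 than to that of PML-RARa.

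The authors' scores of the peaks, which rank peaks within a list and have no stated scale, spread over the whole of both lists. The best PML-RARa score in a region ran from 700 to 2070 with a median of 1006, and the best MLL-AF9 score from 703 to 1628 with a median of 946. Counted from the best score, the median position was 48.3% of the way down the PML-RARa list and 49.8% down the MLL-AF9 list. Regions with an NT peak as well stood higher, at medians of 30.5% and 32.8%, and regions of 1 fusion library alone lower, at 66.8% for PML-RARa and 67.6% for MLL-AF9. Of the 267 regions, 21 were in the best 10% of the PML-RARa list, 18 in that of the MLL-AF9 list and 2 in both. For the best 25% these numbers were 66, 57 and 18, and for the best 50% they were 140, 135 and 79. The counts were not made for other regions, so they describe the 267 regions only.

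The share of each list that fell in these regions varied little with score. Divided into 4 equal parts by score, the PML-RARa list had 15.1% of its best part in these regions (interval 11.9 to 18.8), then 16.9%, 14.7% and 14.9% of the lowest. The MLL-AF9 list had 17.0% (interval 13.3 to 21.4), 21.3%, 21.0% and 18.2%. The part with a HOXA9 peak was smaller among low-scoring peaks. Of the PML-RARa peaks, 25 of 443 of the best part and 9 of 443 of the lowest lay in those of the regions with a HOXA9 peak. For MLL-AF9 the counts were 22 of 352 and 10 of 352. These counts were not made for peaks of other regions. The HOXA9 share fell with score in both-fusion regions with an NT peak too, from 72.4% in the best tertile to 31.7% in the lowest, as given below.

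**Figure D2:**
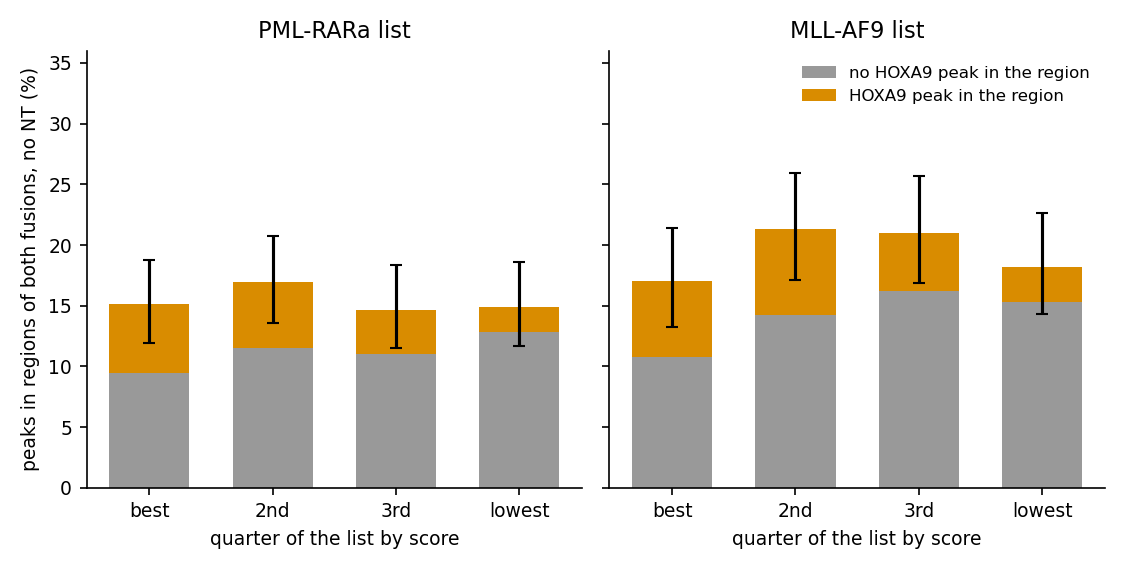
Percent of the PML-RARa peaks (left) and MLL-AF9 peaks (right) that lie in the 267 regions, in 4 equal parts of each list from best to lowest score; grey is regions without and orange regions with a HOXA9 peak, and error bars are exact 95% intervals of the total. The totals stay between 14.7 and 16.9% for PML-RARa and between 17.0 and 21.3% for MLL-AF9, while the orange part is smallest in the lowest part of each list.

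Whether a region held a HOXA9 peak was not part of the rule, but the HOXA9 list took part in the merging, and the region on chromosome 10 named above was joined only through it. A HOXA9 peak was present in 72 of the 267 regions (27.0%, interval 21.7 to 32.7), against 23.3% of all merged regions and 15.5% of the 1300 regions without an NT peak. Among regions without an NT peak, those of PML-RARa that lacked MLL-AF9 had a HOXA9 peak in 54 of 634 (8.52%, interval 6.46 to 11.0), and those of MLL-AF9 that lacked PML-RARa in 29 of 353 (8.22%, interval 5.57 to 11.6). Both shares were below that of the regions of both fusions, with intervals that did not overlap it. Length and score were compared only among regions without a HOXA9 peak. The 580 regions of PML-RARa alone and 324 of MLL-AF9 alone had median lengths of 11.4 kb each, against 16.2 kb for the 195 regions. Their median list positions were lower too, at 66.8% against 51.5% for PML-RARa and 67.6% against 54.9% for MLL-AF9. The part of length and score in the difference of HOXA9 shares was not tested. Where an NT peak was also present, HOXA9 peaks were found in 309 of 589 regions of both fusions (52.5%, interval 48.3 to 56.6). There too the share was lower with PML-RARa but no MLL-AF9 peak, at 46 of 222 (20.7%, interval 15.6 to 26.7). With MLL-AF9 but no PML-RARa peak it was 28 of 140 (20%, interval 13.7 to 27.6). The higher HOXA9 share with both fusions was thus not particular to regions absent from the NT list. The HOXA9 share of the regions described here depended on which peaks entered. With the best 620 peaks of each list it was 59.8%, and with the upper 50% of the fusion lists alone 43.0%.

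The HOXA9 share of the 267 regions and of regions that had an NT peak too is given next within classes of score and of covered length; these classes do not match the length of the merged regions, which NT peaks extend, and the part of score and length in the difference was not tested. All 856 regions of both fusions were split into tertiles by the mean of their positions in the PML-RARa and MLL-AF9 lists. In the best tertile a HOXA9 peak was present in 26 of 53 regions without NT (49.1%, interval 35.1 to 63.2) and in 168 of 232 with NT (72.4%, interval 66.2 to 78.1). In the middle tertile the shares were 28.1% (interval 19.1 to 38.6) and 45.9% (interval 38.8 to 53.2). In the lowest tertile they were 16.8% (interval 10.7 to 24.5) and 31.7% (interval 24.6 to 39.5).

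Split by the mean covered length instead, the HOXA9 share of regions without and with an NT peak was 15.9% and 39.5% in the shortest tertile, and 35.3% and 59.4% in the longest. In the middle tertile it was 41.0% (interval 30.0 to 52.7) and 53.8% (interval 46.8 to 60.8), and these intervals overlapped. The share of both-fusion regions that lacked an NT peak was 18.6% in the best score tertile, 31.2% in the middle and 43.7% in the lowest. It was 48.4% in the shortest, 27.3% in the middle and 17.9% in the longest tertile by length, so score and length moved with absence from the NT list, and their part in it was not tested.

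**Figure D3:**
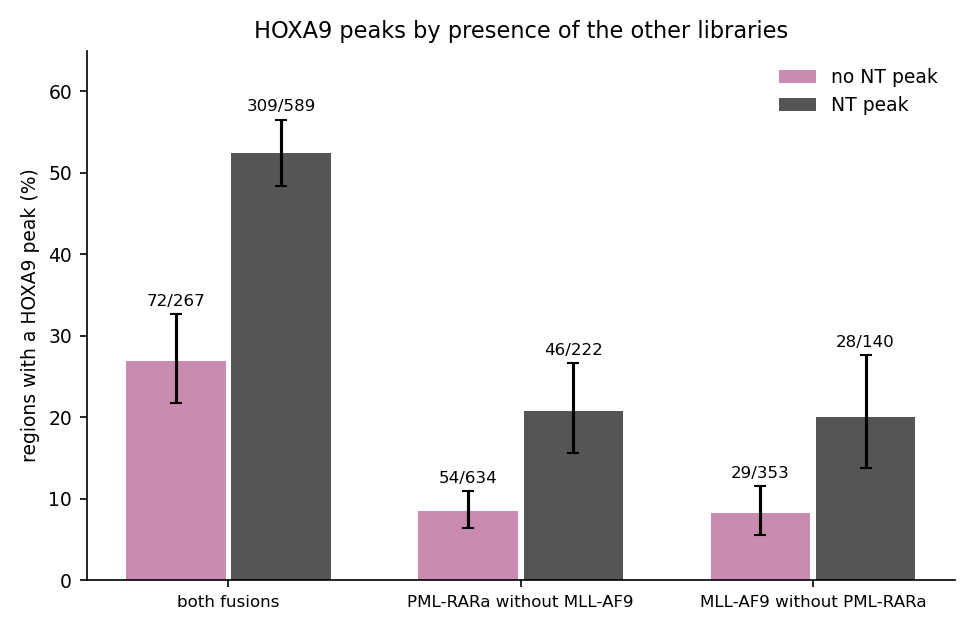
Percent of merged regions with a HOXA9 peak (bars, with exact 95% intervals and counts above them) for regions with peaks of both fusions, of PML-RARa without MLL-AF9 and of MLL-AF9 without PML-RARa; pink bars are regions without and grey bars regions with an NT peak. The regions described here are the first pink bar, 72 of 267, which stands above the other pink bars (54 of 634 and 29 of 353) and below the grey bar for both fusions (309 of 589). The grey bar for both fusions likewise stands above the other grey bars (46 of 222 and 28 of 140).

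Regions with a HOXA9 peak were longer and better placed in the fusion lists than those without. Their median PML-RARa cover was 17.9 kb against 14.7 kb, and their median MLL-AF9 cover 15.97 kb against 10.8 kb. The intervals of these medians were 15.3 to 22.0 and 12.6 to 16.2 kb for PML-RARa, which overlapped, and 13.2 to 18.6 and 9.66 to 12.2 kb for MLL-AF9, which did not. The median position in the PML-RARa list was 36.5% with and 51.5% without a HOXA9 peak, and in the MLL-AF9 list 35.1% and 54.9%.

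Without an NT peak, merging places a HOXA9 peak in a region only through contact with a fusion peak. Contact with at least 1 fusion library is therefore fixed and no finding. In all 72 regions the HOXA9 peak overlapped a peak of each fusion library directly, and in 71 some bases lay in peaks of all 3 oncogene libraries. This common core had a median length of 11.9 kb, from 1.21 to 38.5 kb, and it reached 10 kb or more in 42 of the 71. HOXA9 cover had a median of 17.2 kb. It was smaller than both fusion covers in 21 regions, between them in 29 and larger than both in 22, so the HOXA9 peak was neither regularly the widest nor regularly the narrowest. Within the HOXA9 list the peaks were of ordinary rank, with a median position of 51.9% and scores from 703 to 1389. The 4 equal parts of that list by score held 18, 17, 20 and 18 of the 73 peaks.

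Among the regions with a HOXA9 peak, the best placed in the fusion lists was at chr9:123357087-123438309. It held the widest PML-RARa cover of the group (81.2 kb, score 1518), an MLL-AF9 cover of 27.1 kb with the highest MLL-AF9 score of the group (1628), and a HOXA9 cover of 35.3 kb (score 844). The MLL-AF9 and HOXA9 peaks both lay inside that of PML-RARa, and the nearest NT peak was 872 kb away. The region at chr3:88296623-88349796 was second, with PML-RARa at 53.2 kb (score 1719), MLL-AF9 at 27.8 kb (score 1405) and HOXA9 at 8.82 kb (score 1030).

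Compact regions stood beside these long ones. At chr19:42270363-42279753 the covers were 9.12 kb for PML-RARa, 8.37 kb for MLL-AF9 and 9.02 kb for HOXA9, and 8.20 kb lay in all 3. Its fusion scores were 1343 for PML-RARa and 1443 for MLL-AF9, but its HOXA9 score of 703 was among the lowest of that list. At chr12:56692815-56703340 the covers were 8.02 kb for PML-RARa, 9.84 kb for MLL-AF9 and 8.63 kb for HOXA9, and the PML-RARa score of 2070 was the highest of the 267 regions.

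A region at chr2:105496598-105534413 was covered almost alike by the 3 oncogene libraries, with 35.3 kb for PML-RARa, 36.9 kb for MLL-AF9 and 37.8 kb for HOXA9. Its common core was 35.0 kb, and the nearest listed NT peak was 10149 kb away. From the NT peak names, 3 numbers were missing between the listed NT peaks on either side, a limit described below. By contrast, at chr15:98909297-98932805 PML-RARa covered 23.5 kb, HOXA9 17.2 kb in 2 peaks and MLL-AF9 7.43 kb, and an NT peak lay 14.9 kb away. The remaining best-placed regions with a HOXA9 peak were at chr9:55376344-55400711 and at chr16:20612376-20624481, with common cores of 16.6 and 5.59 kb.

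The longest region with a HOXA9 peak was at chr5:144854468-144941097, where MLL-AF9 covered 86.6 kb, HOXA9 63.1 kb and PML-RARa 44.9 kb. Here the PML-RARa cover was the shortest of the 3. At chr5:122437046-122505479 the PML-RARa cover was instead the longest, with 68.4 kb for PML-RARa, 22.7 kb for MLL-AF9 and 12.8 kb for HOXA9. Of the 195 regions without a HOXA9 peak, the longest was at chr5:114037071-114118902, with 81.8 kb for PML-RARa and 48.5 kb for MLL-AF9. It was followed by one at chr4:140518556-140595500, where the MLL-AF9 peak was the longer, with 76.9 kb against 62.3 kb for PML-RARa. Neither was near the top of the PML-RARa list, with scores of 1074 and 1006. In the MLL-AF9 list the region on chromosome 5 stood at 66.8% (score 872), but that on chromosome 4 stood at 12.5% (score 1288).

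Among the 195 regions without a HOXA9 peak, the best placed was at chr7:151997257-152064566. PML-RARa covered 66.2 kb and MLL-AF9 50.03 kb, each in 2 peaks, and the best scores were 1395 for PML-RARa and 1368 for MLL-AF9. The next, at chr5:125628896-125685020, had covers of 56.1 kb in both fusion libraries, with scores of 1405 for PML-RARa and 1343 for MLL-AF9. It followed an MLL-AF9 peak of 131 kb that was listed in no other library and ended 0.826 kb before it, and an NT peak lay 16.6 kb to its other side.

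At chr14:26574010-26628107 the left ends of the fusion peaks were nearly the same while MLL-AF9 reached further to the right, with 54.0 kb for MLL-AF9 and 38.7 kb for PML-RARa. At chr6:83635229-83675123 the covers were 39.9 kb for PML-RARa and 36.1 kb for MLL-AF9, and at chr6:72129199-72199480 they were 63.3 kb for PML-RARa and 70.3 kb for MLL-AF9. No NT peak lay within 1217 kb and no HOXA9 peak within 10809 kb of the latter region. The remaining best-placed regions of this group were shorter, with merged lengths of 28.2 kb at chr14:69990678-70018828, 13.7 kb at chr4:132638185-132651926, and 6.19 kb at chr7:52953334-52959521.

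**Figure D4:**
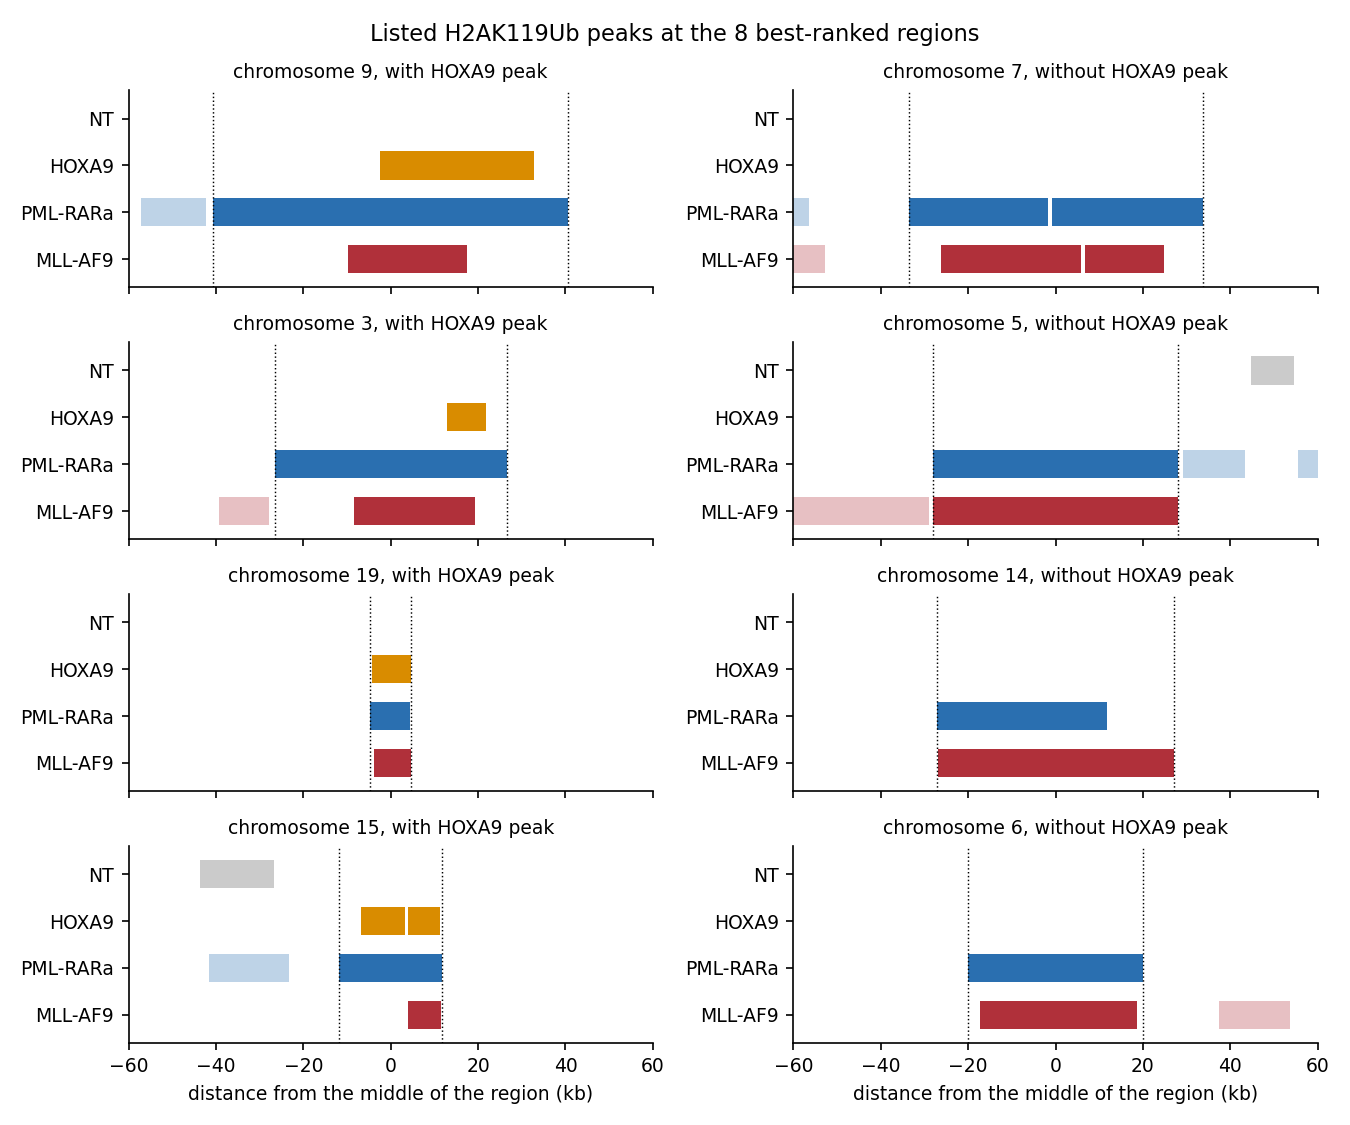
Listed peaks of the 4 libraries at the 4 best-placed regions with a HOXA9 peak (left) and the 4 without (right), drawn to scale as distance in kb from the middle of each region; dotted lines are the ends of the merged region and pale bars are peaks outside it. The NT row is empty between the dotted lines in all 8 panels, and NT peaks appear beside the region on chromosome 15 (14.9 kb away) and on chromosome 5 (16.6 kb away).

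The regions were spread over all chromosomes with listed peaks. Their number was highest on chromosome 2 (25), chromosome 11 (24) and chromosome 7 (23), which also had many merged regions. As a share of the merged regions of the chromosome it ran from 6.25% on chromosome 12 (interval 2.55 to 12.5) to 16.1% on chromosome 3 (interval 9.09 to 25.5) and 16.1% on chromosome 16 (interval 8.02 to 27.7), apart from chromosome X with 2 of 11. The intervals of chromosomes 3, 12 and 16 overlapped.

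Most of the regions were single, and 28 formed 13 runs whose members lay within 100 kb of each other. Runs were not counted for other classes of regions, so whether this number is high or low is not known. One run of 3 was at chr6:88056946-88212949. In its first region the covers were 62.3 kb for PML-RARa, 66.7 kb for MLL-AF9 and 30.5 kb for HOXA9. The second followed after 6.45 kb, with 24.6 kb for PML-RARa, 30.2 kb for MLL-AF9 (score 1545) and 25.04 kb for HOXA9. The third, after a gap of 0.980 kb, had 44.9 kb for PML-RARa and 44.8 kb for MLL-AF9 and no HOXA9 peak. The nearest listed NT peak to any of the 3 was 366 kb away, so this was a stretch of 156 kb that both fusion libraries marked over most of its length and the NT list did not. At this place 1 number was missing from the NT peak names between the listed NT peaks on either side.

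The other run of 3 was at chr11:53868489-54060427, and none of its regions had a HOXA9 peak. PML-RARa covered 29.7, 16.5 and 46.0 kb of them in order along the chromosome, and MLL-AF9 21.7, 5.49 and 6.00 kb. The PML-RARa cover was the larger in each of the 3. The runs, unlike the best-placed regions, were singled out after their positions were seen.

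Absence from the NT list means that no listed NT peak reached the region. The numbers in the NT peak names run to 1766 and 434 are missing; what made these gaps is not known, and calls of that library that are not listed are one reading of them. At 100 of the 267 regions (37.5%, interval 31.6 to 43.6) no number was missing between the preceding and the following listed NT peak, against 45.2% of all regions without an NT peak. A listed NT peak lay on both sides on the same chromosome at 252 of the 267 regions. At the other 15, a neighbouring number was taken from another chromosome or from an end of the list. Numbers of the HOXA9 list, given below, were read in the same way. At 104 regions 1 number was missing, at 47 regions 2, and at 16 regions 3 or more, so, on that reading, an unlisted NT call could lie at 167 of them. Of the 100 regions with no missing number, 20 had a HOXA9 peak and 80 did not.

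Listed NT peaks were seldom close by. The median distance from a region to the nearest NT peak was 234 kb (interval of the median 186 to 310), and it was 253 kb for regions of PML-RARa alone (interval 206 to 323) and 262 kb for regions of MLL-AF9 alone (interval 190 to 369). An NT peak lay within 10 kb of 21 of the 267 regions (7.87%, interval 4.93 to 11.8), against 7.54% of all regions without an NT peak. It lay within 100 kb of 88 (33.0%) and within 1000 kb of 216 (80.9%), against 31.5% and 77.1% of all regions without an NT peak. Nearness to the NT list thus differed little from that of regions marked by 1 fusion library alone.

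**Figure D5:**
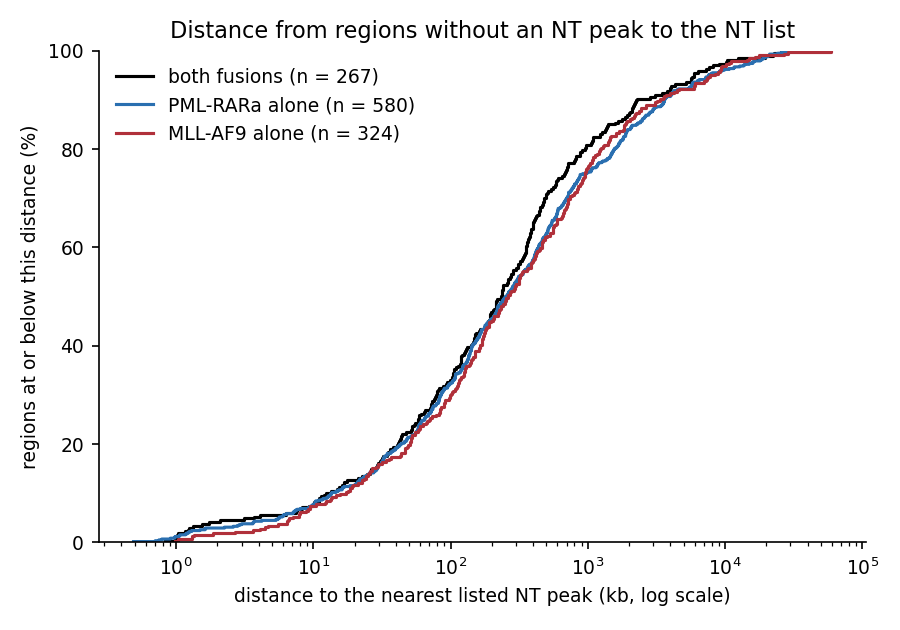
Cumulative percent of regions (vertical) by distance in kb to the nearest listed NT peak (horizontal, log scale) for the 267 regions of both fusions (black), 580 regions of PML-RARa alone (blue) and 324 of MLL-AF9 alone (red). The curves lie close together, with medians of 234, 253 and 262 kb.

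The region closest to the NT list was at chr15:73229117-73258495, 0.837 kb from an NT peak, with 29.4 kb for PML-RARa and 13.2 kb for MLL-AF9. Next came regions at chr11:70034694-70053043 (0.988 kb), chr11:117774574-117814524 (0.990 kb) and chr11:82722982-82745715 (1.02 kb). Just outside the rule, regions were named by the fewest bases shared with an NT peak, whatever the length of the region. At chr3:66773894-66788261 an NT peak of 1.499 kb (score 751) lay inside a PML-RARa cover of 14.4 kb, beside 7.26 kb for MLL-AF9 and 14.1 kb for HOXA9. At chr4:155628435-155630089 the NT peak of 1.501 kb covered most of a region of 1.66 kb, beside 1.58 kb for PML-RARa and 1.63 kb for MLL-AF9. At chr14:122190394-122201940 the NT peak was 1.93 kb.

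The farthest from any listed NT peak, chosen after the values were seen, were at chrX:96325806-96351414 (25436 kb) and at chr3:153632198-153640352 (22817 kb). The region at chr6:6800022-6834948 was 22282 kb from the NT list and had covers of 27.1 kb for PML-RARa and 34.7 kb for HOXA9. Of the NT numbers, 2 were missing at each of the regions on chromosomes 3 and 6 and 0 at that on chromosome X.

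Of the 195 regions without a HOXA9 peak, 6 (3.08%) had one within 10 kb and 36 (18.5%) within 100 kb. The median distance was 458 kb, against 534 kb for regions of PML-RARa alone and 698 kb for MLL-AF9 alone. It was 424 kb for regions of both fusions with an NT but no HOXA9 peak. At 68 of the 195 regions (34.9%) no HOXA9 number was missing between the preceding and the following listed HOXA9 peak. On the same reading, an unlisted HOXA9 call could lie at the other 127. The counts within 10 and 100 kb and of missing HOXA9 numbers were made for the 195 regions only. The separation into regions with and without HOXA9 therefore rests on the listed peaks.

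The number of regions was compared with the classes of the same form in which another library was the one left out. Of the 856 regions shared by PML-RARa and MLL-AF9, 31.2% lacked NT (interval 28.1 to 34.4). Of 811 regions shared by NT and PML-RARa, 222 lacked MLL-AF9 (27.4%, interval 24.3 to 30.6), and of 729 shared by NT and MLL-AF9, 140 lacked PML-RARa (19.2%, interval 16.4 to 22.3). With the best 620 peaks of each list the shares were 41.8% (interval 35.9 to 47.8), 37.1% (interval 31.2 to 43.3) and 38.7% (interval 32.8 to 44.9). At equal list length each interval held the other shares, so the number of regions common to the fusions and absent from NT was then close to that of the other pairs of lists; these classes share their lists and were not tested against each other.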

How the data were processed

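H2AK119Ub ChIP-seq of 4 libraries, 1 per group, was analysed. Per the submitters' processing notes the authors used Bowtie and MACS2 on mm9; their versions and settings, and whether the input served as control, are not stated there. The authors deposited 1 peak list per library without a header, and its score column is their value per peak, with the lowest listed score at 700 or 703; it was used only to rank or filter peaks within a list. Start positions were read as BED and are printed counting from 1. Peaks of all lists were merged where they overlapped or touched, in Python 3.11.15 with pandas 2.3.3, numpy 2.4.6 and scipy 1.17.1. Covered length is the sum of a library's peaks in a region. The merging was tested on simulated data and matched a base-by-base search in 20 of 20 sets. No test between groups was possible. Regions were named by rule: by mean score position in both fusion lists, length, ratio of covers, and nearness to the NT list. The members and lists were chosen with earlier results of these data known. Gene lists that needed an mm9 annotation were not used here.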

Additional observations from a re-analysis of the deposited data

How the results depend on the processing

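No paired analysis was possible because each group had 1 library and the results come from no test. Of 53 values under alternatives, 34 stayed within 1.5 times (counts) or within the 95% interval of the value reported (shares and medians) and 19 moved. With the upper 75% of each list by score, the median cover moved to 16.8 kb (PML-RARa) and 13.7 kb (MLL-AF9). With the upper 50% of each list there were 160 regions, with medians of 19.8 and 16.6 kb. With the upper 50% of the fusion lists alone there were 79, of which 34 (43.0%) had a HOXA9 peak, with medians of 18.1 and 16.1 kb. The best 620 peaks of each list gave 117 regions, 59.8% with a HOXA9 peak, with medians of 21.2 and 16.5 kb; the HOXA9 list is whole at that length and the others are not. Where no NT number was missing there were 100 regions, 20 with a HOXA9 peak (20%), with medians of 13.3 and 10.7 kb. Merging within 1000 bp, requiring direct overlap of at least 1 bp or of 50% of the shorter peak, and requiring no NT peak within 10 kb left 246 to 266 regions. Fusion lists cut to the 1332 best peaks, chosen after seeing the data, left 197. The cause of these shifts was not tested. The depth of the libraries is unknown.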

Other observations

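A minority of the regions lay close to another merged region. Of the 267 regions, 18 had another merged region within 1 kb and 30 within 2 kb (11.2%, interval 7.71 to 15.7), and among all merged regions these shares were 6.33% and 12.0%. The regions described here did not stand apart in this respect, and merging within 1000 bp left 257 of them. In the run on chromosome 6 the region without a HOXA9 peak lay 0.980 kb from its neighbour, which had one, so at this place the separation by HOXA9 turned on a gap under 1 kb.

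HOXA9 cover in the 72 regions followed that of MLL-AF9 (Spearman rho 0.73) more closely than that of PML-RARa (0.50). The points share the merged regions and the single HOXA9 library, and the difference was not tested. Coefficients with HOXA9 were not computed for other regions, so whether this order is particular to the 72 regions is not known.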
